A study of Mus musculus with 8 samples.

Results

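The account covers 10 genes that describe the activation state of macrophages, namely Arg1, Mrc1, Chil3, Cd163, Nos2, Cd14, Trem2, Gpnmb, Apoe and Mertk, out of 29621 genes measured. The 10 were picked by name with their differences between the groups already known, so the comparison of KPC-OG with KPC pancreas is given for them as a description, without p-values. Where the fit across all genes called one of them, the call is named as part of that description and supports nothing. Whole pancreas of 6-week-old C57BL/6 mice (postnatal day 42) was compared between KPC-OG animals, which carry R26tm1(LSL-OG) on top of the KPC genotype, and KPC animals, whose genotype includes p48-Cre and Trp53fl/fl. Each group has 4 libraries, made from total RNA of perfused, flash-frozen tissue after ribosomal depletion. Both groups thus share the whole KPC genotype with its Cre driver, and by the labels the OG allele is what sets them apart. The p48 driver belongs to the Ptf1a locus and acts in the pancreatic epithelial lineage, not in macrophages. The series title describes the model as antigenic. The labels do not say whether each library comes from a separate animal, and the spread and the p-values below therefore measure differences between libraries, which may be partly technical.

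Macrophages take up different programmes according to the signals they meet. IL-4 and IL-13 acting through STAT6 induce the alternative programme, of which ARG1, the mannose receptor MRC1 and the chitinase-like lectin CHIL3 (Ym1) are the classical mouse markers, whereas interferon-gamma and bacterial lipopolysaccharide (LPS) induce NOS2. ARG1 and NOS2 use the same substrate, arginine, and make ornithine and nitric oxide from it. Tumours and adipose tissue also hold lipid-associated macrophages, in which the lipid-sensing receptor TREM2, its signalling adaptor TYROBP, the glycoprotein GPNMB and the lipid carrier apolipoprotein E are abundant.

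The libraries held 13671606 to 18292115 estimated reads in KPC-OG and 7373286 to 11292570 in KPC. A single gene, Lars2, took 3.73 to 7.11% of the gene-level reads in KPC-OG and 20.8 to 29.95% in KPC. The summed level of 10 acinar genes was 39130 to 133040 counts-per-million (CPM) in KPC-OG and 252775 to 474732 CPM in KPC. Values were therefore scaled with edgeR's trimmed mean of M-values (TMM), and every CPM value and log2 fold change below is relative to the typical gene. Without that scaling the middle of the distribution of log2 fold changes lay 1.74 higher. The sum of 16 pan-macrophage genes was 824 to 1114 CPM in KPC-OG and 238 to 476 CPM in KPC. In bulk tissue, fewer cells of a type and less RNA per cell cannot be told apart, and all levels below carry that limit. Islet genes, a sum over 6, were at 427 to 833 CPM in KPC-OG and 451 to 1034 CPM in KPC, and 7 dendritic cell genes summed to 11.5 to 25.6 CPM in KPC-OG and 8.21 to 28.9 CPM in KPC. Acinar and islet genes were thus present in every library, as the tissue label requires.

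Of the 10 genes, 9 passed the filter on low counts, and Nos2 did not. In edgeR's quasi-likelihood test across 14267 genes, 6 of the 9 were past an adjusted p of 0.05 with higher values in KPC-OG and 0 with lower values, beside 17.4% of all tested genes called higher and 16.6% called lower. The 6 were Arg1, Cd14, Apoe, Trem2, Mertk and Mrc1, and the calls of Mrc1 and Mertk were the ones lost when single libraries were left out. For 5 genes, all but Mrc1 of these 6, every KPC-OG library lay above every KPC library, which 17.6% of all tested genes did too. Because the genes were selected on this contrast, nothing is read from those counts.

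**Figure D1:**
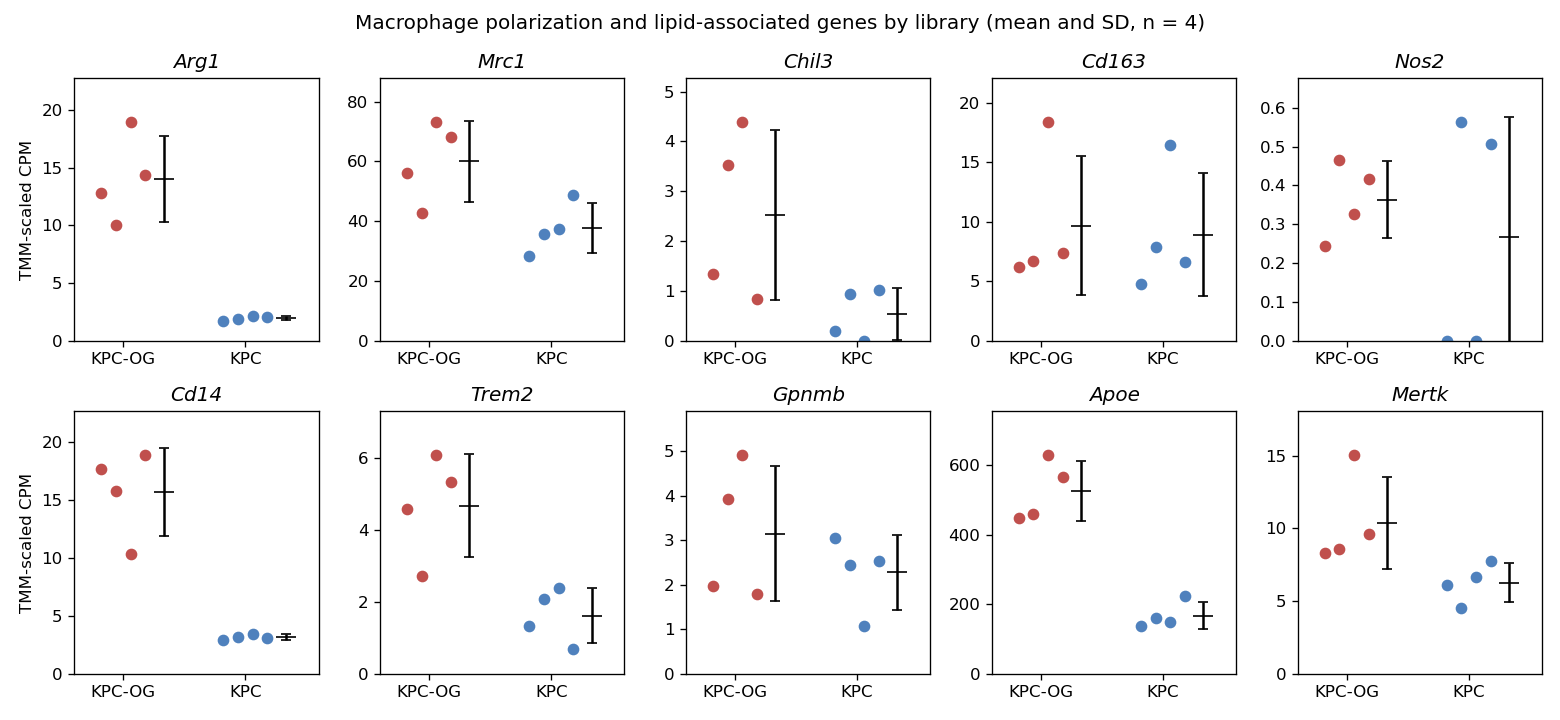
TMM-scaled CPM (y axis, from 0, a separate scale for each gene) of the 10 genes in 4 KPC-OG libraries (red, left) and 4 KPC libraries (blue, right), with the group mean and SD as a bar. Arg1, Cd14, Trem2, Apoe and Mertk have every KPC-OG point above every KPC point, while Mrc1, Chil3, Cd163, Nos2 and Gpnmb overlap.

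Arg1, the arginase that turns arginine into ornithine and urea, showed the largest difference of the 10 genes. Arg1 (ENSMUSG00000019987, GRCm38 chr10:24915221-24927484, minus strand) was at 12.8, 10.1, 19.0 and 14.4 CPM in KPC-OG libraries 1 to 4, against 1.72, 1.88, 2.12 and 2.03 CPM in KPC libraries 1 to 4. The groups were far apart, and the KPC libraries lay within a narrow band while the KPC-OG libraries spread. The means were 14.1 ± 3.74 CPM in KPC-OG and 1.94 ± 0.177 CPM in KPC (SD, n = 4 each), a log2 fold change of 2.86 with a standard error (SE) of 0.24. The KPC value rests on 39 reads over all 4 libraries, against 1583 reads in KPC-OG. All of these reads belong to 1 annotated transcript.

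Arg1 is also a gene of hepatocytes, where it serves the urea cycle, and traces of liver RNA were present. The sum of 12 hepatocyte genes was 21.6, 302, 416 and 24.1 CPM in KPC-OG libraries 1 to 4, against 30.6, 19.5, 27.9 and 19.9 CPM in KPC libraries 1 to 4, with Fgb at 0 in every KPC library. In KPC-OG libraries 1 and 4, whose hepatocyte sums lay within the KPC range, Arg1 was 12.8 and 14.4 CPM. Without KPC-OG 2 and KPC-OG 3 the log2 fold change of Arg1 was 2.83. The part of liver RNA in the Arg1 values of those libraries was not tested.

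Mrc1, the mannose receptor CD206 and a second marker of the alternative programme, differed much less. Mrc1 (ENSMUSG00000026712, GRCm38 chr2:14229392-14332057, plus strand) was at 56.1, 42.8, 73.1 and 68.1 CPM in KPC-OG libraries 1 to 4, against 28.5, 35.7, 37.4 and 48.8 CPM in KPC libraries 1 to 4. The groups overlapped, because KPC-OG 2 lay below KPC 4. The means were 60.0 ± 13.5 CPM in KPC-OG and 37.6 ± 8.42 CPM in KPC (SD, n = 4 each), a log2 fold change of 0.67 (SE 0.20). Its call was lost without KPC 1, KPC 2, KPC 3 or KPC-OG 4, where the log2 fold change was 0.55, 0.64, 0.66 and 0.61. MRC1 is also made by lymphatic endothelium, and 6 genes of that cell type summed to 82.7 to 157 CPM in KPC-OG and 22.3 to 89.3 CPM in KPC, whose part in the Mrc1 level was not tested. The gene hosts the microRNA Mir511, for which no separate value was analysed here.

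Chil3 encodes Ym1, a secreted lectin of mouse alternatively activated macrophages and of neutrophils. Chil3 (ENSMUSG00000040809, GRCm38 chr3:106147554-106167564, minus strand) was at 1.34, 3.52, 4.39 and 0.834 CPM in KPC-OG libraries 1 to 4, against 0.191, 0.939, 0 and 1.01 CPM in KPC libraries 1 to 4. KPC-OG 2 and 3 stood above the others, and KPC-OG 4 lay below KPC 2 and KPC 4. The log2 fold change was 2.09 with an SE of 0.78, and the gene was not past the threshold. Without KPC-OG 2 and KPC-OG 3 the value was 0.94. The KPC values rest on 12 reads in all, and the 0 of KPC 3 allows a level of up to 0.796 CPM (3 reads, counting error only).

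The reads of Chil3 are hard to separate from those of its near-identical neighbour Chil4 (Ym2). Of the 20-base words of the coding transcript Chil3-201, 46.2% also occur in transcripts of other genes, 44.8% in Chil4, while no transcript of the other 9 genes shared more than 2.21%. The aligned coding stretch shows how alike they are: in 216 bases (positions 990 to 1205 of each GENCODE M21 transcript, both from chromosome 3) there are 10 differences, printed in capitals, and an identical run of 136 bases.

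Chil3-201: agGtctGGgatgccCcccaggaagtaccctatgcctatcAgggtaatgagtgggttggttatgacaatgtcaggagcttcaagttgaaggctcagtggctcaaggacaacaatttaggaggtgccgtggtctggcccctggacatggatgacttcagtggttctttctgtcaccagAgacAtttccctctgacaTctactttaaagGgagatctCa
Chil4-201: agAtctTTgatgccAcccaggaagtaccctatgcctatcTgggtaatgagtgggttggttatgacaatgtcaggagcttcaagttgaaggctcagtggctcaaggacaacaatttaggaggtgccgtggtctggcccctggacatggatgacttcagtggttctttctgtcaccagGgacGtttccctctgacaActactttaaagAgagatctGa

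Chil4 was at 1.58, 3.06, 0.720 and 4.79 CPM in KPC-OG libraries 1 to 4, against 0.955, 0, 9.02 and 0 CPM in KPC libraries 1 to 4. KPC 3, in which Chil3 had no read, thus held the highest Chil4 value of all 8 libraries, from 34 reads. The log2 fold change of Chil4 was 0.21 (SE 1.18, edgeR adjusted p = 0.910), and 3.04 without KPC 3. The sum of both genes was 2.92, 6.58, 5.11 and 5.63 CPM in KPC-OG libraries 1 to 4, against 1.15, 0.939, 9.02 and 1.01 CPM in KPC libraries 1 to 4. With the pair summed, KPC 3 lay above every KPC-OG library and the other KPC libraries lay below them all. The split of reads between the pair of genes is uncertain for that reason. Of 5 Kupffer cell genes, Marco was uneven in both groups, at 2.28, 27.2, 31.0 and 5.42 CPM in KPC-OG libraries 1 to 4 and 0.955, 28.4, 1.33 and 24.99 CPM in KPC libraries 1 to 4. Marco made up most of the sum of the 5 in its high libraries (38.5 and 39.3 CPM in KPC-OG 2 and 3, 34.0 and 32.1 CPM in KPC 2 and 4), while the defining gene Clec4f was at 0 in all libraries but KPC-OG 2 (0.233 CPM). The higher Chil3 libraries of each group are the higher Marco libraries. The sum of 7 dendritic cell genes was higher in them too. It was 11.5, 24.8, 25.6 and 14.5 CPM in KPC-OG libraries 1 to 4. In KPC libraries 1 to 4 it was 8.21, 28.9, 13.8 and 27.2 CPM. What part the cells behind these genes have in the Chil3 values was not tested. The neutrophil genes, a sum over 10, were at 14.7 to 31.8 CPM in KPC-OG and 5.16 to 22.9 CPM in KPC, with Mpo and Elane at 0 in every KPC library, and their part was not tested either.

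The wider alternative-activation list held 20 genes besides the 10, of which 17 were tested. In KPC-OG, 9 were higher, 0 were lower and 8 did not pass, with a median log2 fold change of 0.95, where that of the whole set of tested genes was 0.085. Retnla, which encodes the IL-4-induced secreted protein RELM-alpha, was 1.64 higher on the log2 scale (SE 0.17, edgeR adjusted p = 0.000465), and the IL-4 receptor chain gene Il4ra was 1.39 higher (SE 0.22, edgeR adjusted p = 0.00148). The transcription factor genes Pparg and Klf4, both linked to this programme, were 1.17 and 0.95 higher (edgeR adjusted p = 0.00533 and 0.00243).

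Cd163 encodes the scavenger receptor for haptoglobin-bound haemoglobin, a marker of resident tissue macrophages. Cd163 (ENSMUSG00000008845, GRCm38 chr6:124304656-124330527, plus strand) was at 6.21, 6.66, 18.4 and 7.35 CPM in KPC-OG libraries 1 to 4, against 4.77, 7.89, 16.5 and 6.59 CPM in KPC libraries 1 to 4. Each group had 1 high library, KPC-OG 3 and KPC 3, and the groups overlapped throughout. The means were 9.66 ± 5.85 CPM in KPC-OG and 8.93 ± 5.18 CPM in KPC (SD, n = 4 each), a log2 fold change of 0.13 (SE 0.46) that was not past the threshold. Its sign turned without KPC-OG 3, where it was -0.36, without KPC 1, where it was -0.09, and with library sizes re-centred on the median gene, where it was -0.13.

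Of the coding transcripts of Cd163, Cd163-202 was at 0.708, 0.765, 12.1 and 2.45 CPM in KPC-OG libraries 1 to 4, against 0 in all 4 KPC libraries, where the gene had 168 reads in all. The counts of 0 allow levels of up to 0.507 to 0.796 CPM in KPC (3 reads). KPC-OG 3 and KPC-OG 4 lay beyond the limit of every KPC library. KPC-OG 1 and KPC-OG 2 lay beyond every limit but that of KPC 3 (0.796 CPM). Cd163-202 took 11.4, 11.5, 65.7 and 33.4% of the Cd163 reads in KPC-OG libraries 1 to 4, or 32.3% pooled and 19.1% without KPC-OG 3. Cd163-201 alone was at 5.65 ± 0.5996 CPM in KPC-OG and 8.90 ± 5.20 CPM in KPC (SD, n = 4 each). The adipocyte genes, a sum over 6, were at 260.0 CPM in KPC-OG 3 and at 4.90 to 38.4 CPM in the other KPC-OG libraries, and at 3.18 to 130 CPM in KPC, with 3.18 CPM in KPC 3. Whether that sum has a part in the Cd163 level was not tested.

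Of 12 other genes of haem and haemoglobin handling, the pathway CD163 feeds, 11 were tested, and in KPC-OG 3 were higher, 0 were lower and 8 did not pass (median log2 fold change 0.36), with 1 gene lower when KPC 3 was left out. They were Hmox1, the haem oxygenase gene, 1.15 higher (SE 0.23, edgeR adjusted p = 0.00448), the biliverdin reductase gene Blvrb, 0.95 higher (SE 0.20, edgeR adjusted p = 0.00492), and the phagosomal metal transporter gene Slc11a1, 1.04 higher (SE 0.34, edgeR adjusted p = 0.0359). The call of Slc11a1 was lost when KPC 1, 3 or 4 or KPC-OG 2, 3 or 4 was left out, where its log2 fold change was 0.81 to 1.08.

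Nos2, the inducible nitric oxide synthase and the classical counterpart of Arg1, was barely detected. Nos2 (ENSMUSG00000020826, GRCm38 chr11:78920787-78960254, plus strand) had 8, 18, 5 and 14 reads in KPC-OG libraries 1 to 4, against 0, 3, 0 and 3 reads in KPC libraries 1 to 4. Scaled for depth these were 0.244, 0.466, 0.327 and 0.417 CPM in KPC-OG, against 0, 0.563, 0 and 0.507 CPM in KPC. The groups overlapped, since the KPC libraries with reads lay above every KPC-OG library. The counts of 0 in KPC 1 and KPC 3 allow levels of up to 0.573 and 0.796 CPM (3 reads), so a difference was not detectable at this depth and no fold change is given.

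Per transcript length, in transcripts-per-million (TPM), Arg1 exceeded Nos2 in every library, with means of 22.8 ± 5.29 TPM for Arg1 and 0.220 ± 0.101 TPM for Nos2 in KPC-OG, and 1.08 ± 0.192 TPM for Arg1 and 0.0608 ± 0.0710 TPM for Nos2 in KPC (SD, n = 4 each). With no Nos2 read in KPC 1 and KPC 3, the ratio of these genes was not compared between the groups. Of 20 further genes of the classical programme 14 were tested, and in KPC-OG 3 were higher, 0 were lower and 11 did not pass, with a median log2 fold change of 0.93. They were Ifngr1, a chain of the interferon-gamma receptor, 1.40 higher (SE 0.21, edgeR adjusted p = 0.00131), the cytokine gene Il1b, 1.93 higher (SE 0.46, edgeR adjusted p = 0.0102), and the cytokine signalling inhibitor gene Socs3, 0.72 higher (SE 0.22, edgeR adjusted p = 0.0272). The call of Socs3 was lost without KPC 1, KPC-OG 1 or KPC-OG 4, where it was 0.77, 0.65 and 0.71, and 5 genes of the list were higher without KPC 2.

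The other 15 genes of arginine and nitric oxide metabolism did not follow Arg1 as a group. Of the 14 tested, 5 were higher and 5 lower in KPC-OG and 4 did not pass, with a median log2 fold change of -0.02; under TPM all 5 lower genes had positive values, and with library sizes alone 4 of the 5 did. The lower genes included Slc7a1, the main cationic amino acid transporter (log2 fold change -1.72, SE 0.18, edgeR adjusted p = 0.000465), and the polyamine synthesis genes Odc1 and Srm (log2 fold changes -1.45 and -1.31, edgeR adjusted p = 0.000624 and 0.00193), with Slc7a2 at -1.06 and Amd1 at -0.67. The call of Amd1 was lost without KPC 3, KPC-OG 2 or KPC-OG 4 (-0.58, -0.59 and -0.56). The higher ones included Ddah1 and Ddah2, which break down inhibitors of nitric oxide synthases, at 1.93 and 1.12 (edgeR adjusted p = 0.00434 and 0.00722), with the endothelial synthase gene Nos3 at 0.99, Gch1 at 0.59 and Oat at 0.49. The call of Gch1 was lost without KPC-OG 4 (0.54), and that of Oat without KPC 1, KPC-OG 1 or KPC-OG 4 (0.47, 0.41 and 0.47), and 3 genes in place of 5 were higher without KPC-OG 4. The acinar gene sum given above moved with the lower genes, and its part in them was not tested.

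Cd14, the co-receptor that hands LPS to TLR4, stood next to Arg1 in the size of its difference. Cd14 (ENSMUSG00000051439) was at 17.7, 15.8, 10.3 and 18.8 CPM in KPC-OG libraries 1 to 4, against 2.86, 3.19, 3.45 and 3.04 CPM in KPC libraries 1 to 4. The groups did not overlap, the lowest KPC-OG library was KPC-OG 3, and the KPC libraries lay close together. The KPC values rest on 15, 17, 13 and 18 reads, 63 in all, against 1979 reads in KPC-OG. With so few reads, the closeness of the KPC libraries is no measure of precision. The means were 15.6 ± 3.79 CPM in KPC-OG and 3.14 ± 0.248 CPM in KPC (SD, n = 4 each), a log2 fold change of 2.33 (SE 0.22).

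Among 186 related genes and markers, the one whose levels varied most like Cd14 within the groups was Dpt, a fibroblast matrix gene, with Pearson r = 0.96 over 8 libraries after each group's mean was removed. The value was 0.78 without the 2 libraries farthest from the median. The summed level of 8 fibroblast genes was 4642, 2785, 1642 and 4250 CPM in KPC-OG libraries 1 to 4, against 1025, 1305, 983 and 1280 CPM in KPC libraries 1 to 4. KPC-OG 3 was thus the lowest KPC-OG library for the fibroblast sum as it was for Cd14. It was also the lowest for the sum of 8 duct genes, at 1115, 1104, 608 and 1322 CPM in KPC-OG libraries 1 to 4. That duct sum was 304, 269, 321 and 355 CPM in KPC libraries 1 to 4. The part of fibroblasts and of duct cells in the Cd14 level was not tested.

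The LPS receptor list held 14 other genes, all tested, and in KPC-OG 6 were higher, 2 were lower and 6 did not pass (median log2 fold change 0.53), the lower ones having positive values under TPM and with library sizes alone. Lbp, which encodes the LPS-binding protein that loads CD14, was 2.37 higher (SE 0.31, edgeR adjusted p = 0.000946), Tlr4 was 1.45 higher (SE 0.20, edgeR adjusted p = 0.000955), and Ly86, a partner of a TLR4-related receptor, was 1.47 higher (SE 0.31, edgeR adjusted p = 0.00567). The downstream kinase gene Irak1 was lower, at -1.15 (SE 0.20, edgeR adjusted p = 0.00221), and so was the ligase gene Traf6, at -0.64 (SE 0.19, edgeR adjusted p = 0.0252). The call of Traf6 was lost when KPC 1, 2 or 4 or KPC-OG 1, 2 or 4 was left out, where it was -0.55 to -0.63, which leaves 1 lower gene, and 3 genes in place of 6 were higher without KPC-OG 2 or KPC-OG 4.

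Trem2 encodes the lipid-sensing receptor that is abundant in lipid-associated macrophages. Trem2 (ENSMUSG00000023992, GRCm38 chr17:48346401-48354147, plus strand) was at 4.60, 2.72, 6.09 and 5.33 CPM in KPC-OG libraries 1 to 4, against 1.34, 2.07, 2.39 and 0.675 CPM in KPC libraries 1 to 4. The groups did not overlap, but the gap between KPC-OG 2 and KPC 3 was small. The means were 4.68 ± 1.44 CPM in KPC-OG and 1.62 ± 0.766 CPM in KPC (SD, n = 4 each), a log2 fold change of 1.57 (SE 0.39). Its call was lost with limma-voom, where the value was 1.54.

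The Trem2 total joins coding and non-coding transcripts. Trem2-203, a retained-intron transcript of 4784 bases with no coding sequence, took 28.03, 32.6, 43.9 and 20.8% of the Trem2 reads in KPC-OG libraries 1 to 4, against 56.8, 87.1, 82.7 and 0% in KPC libraries 1 to 4. KPC 4 lay below every KPC-OG library and the other KPC libraries lay above them, so the shares overlapped. The pooled shares were 29.3% in KPC-OG and 68.1% in KPC, the KPC one from about 20.5 estimated reads. The transcript stood at 1.29, 0.890, 2.67 and 1.11 CPM in KPC-OG libraries 1 to 4, against 0.777, 1.75, 1.89 and 0 CPM in KPC libraries 1 to 4, and the groups overlapped. The coding transcripts Trem2-201 and Trem2-202 together stood at 3.29, 1.84, 3.14 and 4.23 CPM in KPC-OG, against 0.573, 0.188, 0.265 and 0.675 CPM in KPC. Every KPC-OG library was well above every KPC library on that count, with means of 3.12 ± 0.982 CPM in KPC-OG and 0.425 ± 0.235 CPM in KPC (SD, n = 4 each). With coding transcripts alone, an analysis chosen after seeing the data, the log2 fold change of Trem2 was 2.81 in place of 1.57. The KPC value then rests on 9 reads, against 369 in KPC-OG. Over all genes, retained-intron transcripts held 2.03 to 2.93% of reads in KPC-OG and 0.875 to 1.23% in KPC.

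**Figure D2:**
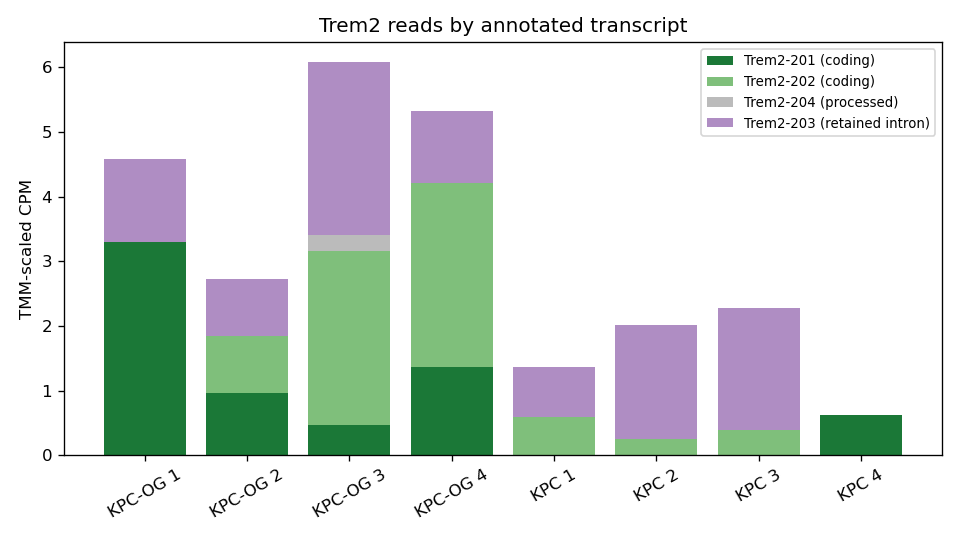
Stacked bars of TMM-scaled CPM (y axis, from 0) of the annotated Trem2 transcripts in each library, KPC-OG libraries on the left and KPC libraries on the right, from unrounded estimated reads. The coding transcripts in green exceed the retained-intron transcript in purple in every KPC-OG library and in KPC 4, and fall short of it in KPC 1, 2 and 3.

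The 250 bases before the RefSeq start are shown for Trem2 and Mrc1, members of the set with a clear and a small difference whose promoters held matches to motifs of macrophage transcription factors. Both are on the plus strand of GRCm38.p6, at chr17:48346151-48346400 for Trem2 and chr2:14229164-14229413 for Mrc1, and capitals mark the matches.

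Trem2: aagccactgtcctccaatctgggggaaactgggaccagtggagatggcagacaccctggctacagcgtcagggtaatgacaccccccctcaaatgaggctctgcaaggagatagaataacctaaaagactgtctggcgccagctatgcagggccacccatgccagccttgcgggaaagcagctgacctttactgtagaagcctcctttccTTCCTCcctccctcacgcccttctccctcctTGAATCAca
Mrc1: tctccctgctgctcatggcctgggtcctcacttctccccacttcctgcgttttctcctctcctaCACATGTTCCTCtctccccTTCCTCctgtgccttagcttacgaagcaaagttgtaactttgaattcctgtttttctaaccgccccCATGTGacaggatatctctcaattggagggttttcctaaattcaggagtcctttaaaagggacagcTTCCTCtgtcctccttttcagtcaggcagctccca

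The core GAGGAA of the myeloid factor PU.1, searched on both strands, matched once in the Trem2 window, 40 bases before the start, and at -180, -167 and -35 in the Mrc1 window. It occurs in 23.253% of 32851 RefSeq promoter windows of that length. The AP-1 motif TGANTCA matched in the Trem2 window at -9 and occurs in 6.749% of windows. The core CACATG of the MITF M-box matched at -186 and -101 in the Mrc1 window and occurs in 12.252% of windows, and its first match there abuts a PU.1 match. The windows of Mertk, Chil3, Gpnmb and Cd163 held none of these, and none of the 6 windows held the STAT6 motif, TTC and GAA with 4 bases between them (5.854% of windows), the C/EBP motif TTGCNNAA (9.564%) or the E-box CACGTG (6.021%). A match is a string of letters and not a shown site.

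TREM2 signals through TYROBP and is shed by ADAM10. The list for TREM2 signalling and shedding held 10 genes, all tested. In KPC-OG 2 were higher, 1 was lower and 7 did not pass (median log2 fold change 0.64). These counts lie near the shares of all tested genes, 17.4% higher and 16.6% lower. The lower gene had a positive value under TPM and with library sizes alone. Of the higher ones, Tyrobp is also a pan-macrophage gene and is counted in both lists. Tyrobp was 2.04 higher (SE 0.23, edgeR adjusted p = 0.000558) and the kinase gene Btk 0.99 higher (SE 0.33, edgeR adjusted p = 0.0386). Adam10 was lower, at -0.58 (SE 0.17, edgeR adjusted p = 0.0217). The call of Adam10 was lost without KPC 1, KPC 4 or KPC-OG 2 (-0.53, -0.55 and -0.47), and that of Btk when KPC 1, 3 or 4 or KPC-OG 2, 3 or 4 was left out (0.85 to 1.05).

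Gpnmb, a membrane glycoprotein induced in lysosome-rich, lipid-laden macrophages, did not show the pattern of Trem2. Gpnmb (ENSMUSG00000029816, GRCm38 chr6:49036546-49070929, plus strand) was at 1.98, 3.91, 4.91 and 1.79 CPM in KPC-OG libraries 1 to 4, against 3.06, 2.44, 1.06 and 2.53 CPM in KPC libraries 1 to 4. KPC-OG 2 and 3 were high, while KPC-OG 1 and 4 lay below 3 of the KPC libraries. The log2 fold change was 0.42 (SE 0.42) and was not past the threshold, and it was -0.27 without KPC-OG 2 and KPC-OG 3. GPNMB is also made by melanocytes. Of 5 melanocyte genes, Mlana and Tyrp1 were at 0 in all 8 libraries, and Pmel was at 0.536 to 1.14 CPM in KPC-OG and 0.764 to 1.33 CPM in KPC. Tyr and Dct were seen in KPC-OG 2 and KPC-OG 3 alone, the libraries with the higher Gpnmb, at 0.0777 to 0.196 CPM. The counts of 0 allow up to 0.507 to 0.796 CPM in KPC (3 reads), so their absence there was not detectable. In KPC-OG 1 and 4 they allow up to 0.0913 and 0.0893 CPM. The part of Tyr- and Dct-expressing cells in the Gpnmb values was not tested.

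Apoe, the lipid carrier of macrophages, hepatocytes and several other cells, was the most abundant of the 10 genes. Apoe (ENSMUSG00000002985, GRCm38 chr7:19696109-19699188, minus strand) was at 447, 461, 630 and 567 CPM in KPC-OG libraries 1 to 4, against 136, 161, 147 and 225 CPM in KPC libraries 1 to 4. The groups did not overlap, and the lowest KPC-OG library was far above the highest KPC library. The means were 526 ± 87.4 CPM in KPC-OG and 167 ± 39.8 CPM in KPC (SD, n = 4 each), a log2 fold change of 1.65 (SE 0.21). The main coding transcript Apoe-209 held 72.4% of the Apoe reads in KPC-OG and 78.0% in KPC. In KPC-OG 1 and 4, the libraries with low hepatocyte sums, Apoe was 447 and 567 CPM, and without KPC-OG 2 and KPC-OG 3 its log2 fold change was 1.62. The part of liver RNA in the Apoe values was not tested. Within the groups the levels of Apoe varied most like those of Lyz2, the lysozyme gene of myeloid cells (Pearson r = 0.87 over 8 libraries after each group's mean was removed, 0.90 without the 2 farthest).

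Among 22 other lipid-associated macrophage genes 21 were tested, and in KPC-OG 11 were higher, 0 were lower and 10 did not pass (median log2 fold change 0.67), with 1 gene lower when KPC-OG 3 was left out. Plin2, which encodes a lipid droplet coat protein, was 1.38 higher (SE 0.19, edgeR adjusted p = 0.00108), the galectin gene Lgals3 was 1.48 higher (SE 0.23, edgeR adjusted p = 0.00148), and the tetraspanin gene Cd9 was 1.26 higher (SE 0.20, edgeR adjusted p = 0.00167). Spp1, the gene of secreted osteopontin, was 1.65 higher (SE 0.26, edgeR adjusted p = 0.00152), and it is also a duct gene. The 8 duct genes, Spp1 among them, summed to 608 to 1322 CPM in KPC-OG and 269 to 355 CPM in KPC. Spp1 itself had means of 542 CPM in KPC-OG and 173 CPM in KPC, so that sum is not independent of it. The part of duct cells in the Spp1 value was not tested.

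Mertk encodes a receptor tyrosine kinase with which macrophages recognise and engulf dying cells. Mertk (ENSMUSG00000014361, GRCm38 chr2:128698956-128802894, plus strand) was at 8.34, 8.58, 15.1 and 9.59 CPM in KPC-OG libraries 1 to 4, against 6.11, 4.51, 6.63 and 7.77 CPM in KPC libraries 1 to 4. The groups did not overlap, but KPC-OG 1 and KPC 4 lay close together, and KPC-OG 3 stood above the rest. The means were 10.4 ± 3.16 CPM in KPC-OG and 6.26 ± 1.35 CPM in KPC (SD, n = 4 each), a log2 fold change of 0.72 (SE 0.24). Its call was lost when KPC 1, 2 or 3 or KPC-OG 2, 3 or 4 was left out, where the log2 fold change was 0.51 to 0.80, and with limma-voom, where it was 0.66. The antisense gene Gm14011 overlaps Mertk and was not analysed here, and since no source used here says that reads were counted by strand, the pair cannot be told apart.

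Of 16 other efferocytosis genes, which serve the clearance of dying cells, 15 were tested, and in KPC-OG 6 were higher, 2 were lower and 7 did not pass (median log2 fold change 0.48), the lower ones having positive values under TPM and with library sizes alone. The sister receptors of MERTK differed in direction, with Axl 1.24 higher (SE 0.20, edgeR adjusted p = 0.00158) and Tyro3 lower at -1.22 (SE 0.17, edgeR adjusted p = 0.0011). Pros1, which encodes a bridging ligand of these receptors, was 1.29 higher (SE 0.21, edgeR adjusted p = 0.00184), and the scavenger receptor gene Stab1 was 1.16 higher (SE 0.15, edgeR adjusted p = 0.000838). The second lower gene was Dock1, an engulfment gene, at -0.48 (SE 0.12, edgeR adjusted p = 0.0142).

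**Figure D3:**
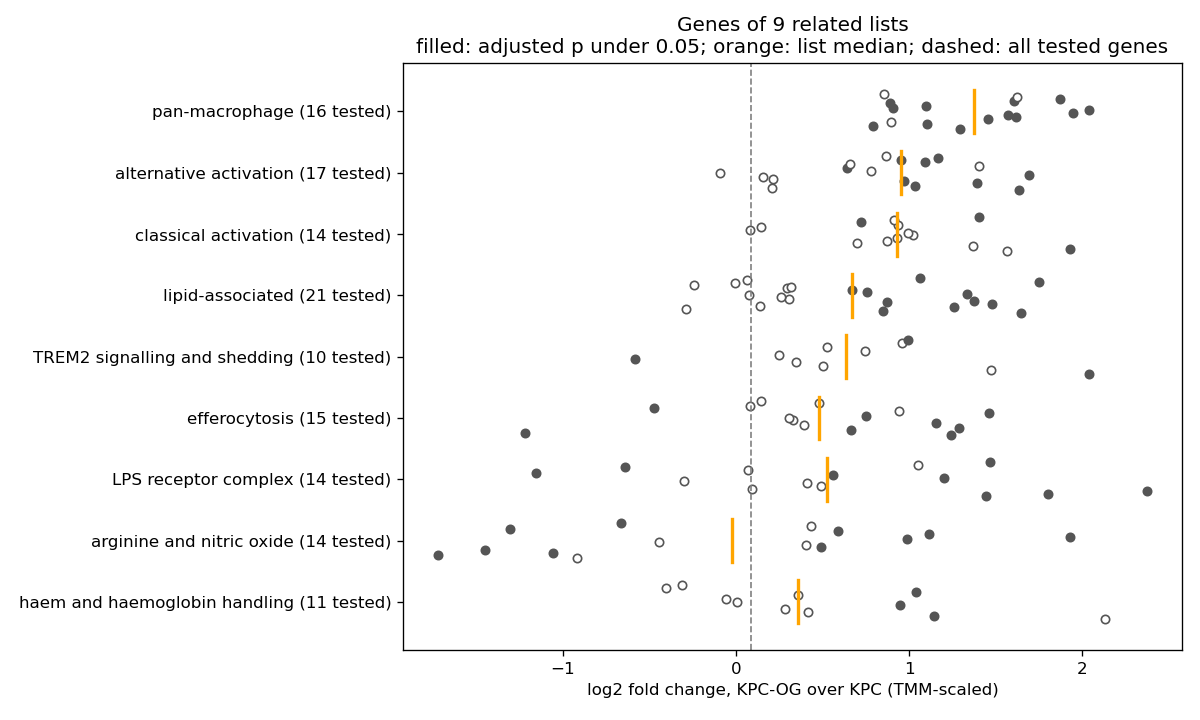
Log2 fold change of KPC-OG over KPC (x axis) for the tested genes of 9 lists of other genes (rows), with filled points for genes past an adjusted p of 0.05, an orange bar at each list's median and a dashed line at the median of all tested genes, 0.085. The pan-macrophage genes have the highest median, 1.38, and the arginine and nitric oxide genes spread to both sides around -0.02.

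The next question was how the 10 genes stand to the macrophage content of each library. All 16 pan-macrophage genes were tested, and in KPC-OG 13 were higher, 0 were lower and 3 did not pass (median log2 fold change 1.38). C1qa was 1.45 higher (SE 0.18, edgeR adjusted p = 0.000715), C1qb 1.62 higher (SE 0.19, edgeR adjusted p = 0.000573) and Cd68 1.10 higher (SE 0.15, edgeR adjusted p = 0.00103). Tyrobp, given above with the TREM2 list, is among the 13. Each gene was set against the mean log2 CPM of these 16 genes in its own library, a difference that no scaling between libraries can move apart from the small prior count of 2 that was added.

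On this scale a typical gene was lower in KPC-OG, because the pan-macrophage genes were higher there: the median difference of all tested genes, KPC-OG minus KPC, was -1.33. Of all tested genes 0.722% had every KPC-OG library above every KPC library, and 63.8% had every KPC-OG library below. Arg1 minus the pan-macrophage mean was -0.68, -1.07, -0.36 and -0.91 in KPC-OG libraries 1 to 4, against -1.60, -2.45, -1.62 and -2.57 in KPC libraries 1 to 4. Every KPC-OG library was above every KPC library, and the group means differed by 1.30. Mrc1 minus the pan-macrophage mean was 1.44, 1.004, 1.58 and 1.33 in KPC-OG libraries 1 to 4, against 2.36, 1.72, 2.45 and 1.95 in KPC libraries 1 to 4. Every KPC-OG library was below every KPC library, as for most tested genes, with a difference of -0.78 between the group means, less far down than the median gene.

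For the other genes the groups overlapped on this scale. The differences of the group means, KPC-OG minus KPC, were 0.82 for Chil3, 0.79 for Cd14, 0.21 for Apoe and 0.09 for Trem2, and they were below 0 for Mertk (-0.75), Gpnmb (-1.03) and Cd163 (-1.34). For Trem2 the total includes the retained-intron transcript. Its coding transcripts alone had a log2 fold change of 2.81, from 9 reads in KPC and chosen after seeing the data. The pan-macrophage genes were not restricted to coding transcripts, so that value cannot be set against theirs.

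**Figure D4:**
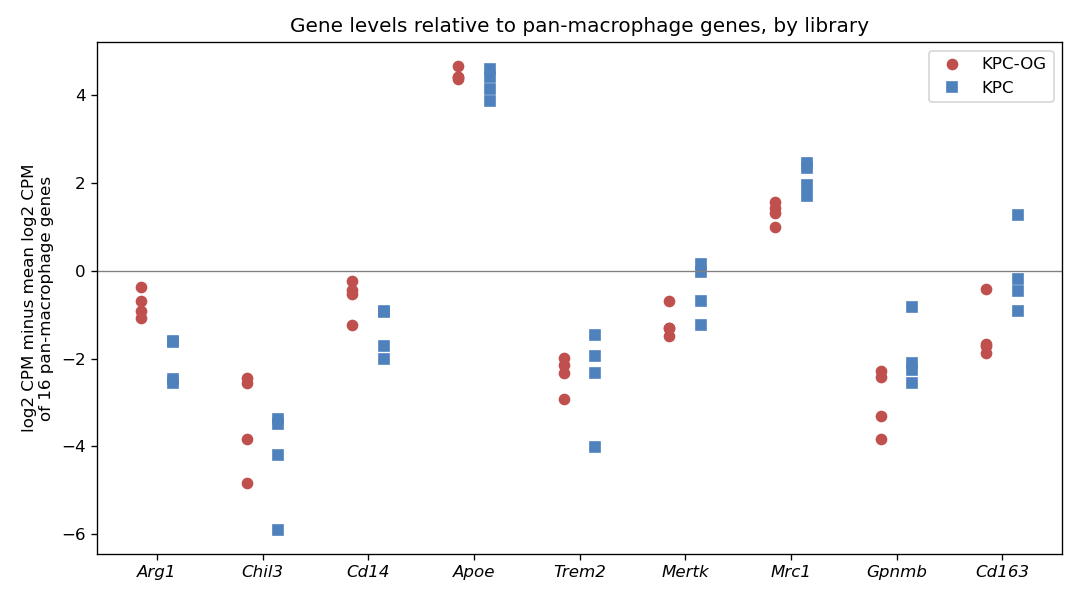
Log2 CPM of each gene minus the mean log2 CPM of 16 pan-macrophage genes of the same library (y axis), with KPC-OG libraries as red circles on the left and KPC libraries as blue squares on the right of each gene. Arg1 lies higher in KPC-OG (group means -0.76 in KPC-OG and -2.06 in KPC) and Mrc1 lies lower (1.34 in KPC-OG and 2.12 in KPC), both without overlap, while 63.8% of all tested genes lie lower without overlap.

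The same was computed per transcript length, as TPM of each gene for every 100 TPM of the pan-macrophage genes. Arg1 was at 1.08 to 1.53 in KPC-OG and 0.409 to 0.710 in KPC, and Mrc1 at 1.39 to 1.81 in KPC-OG and 2.43 to 3.15 in KPC, again without overlap, as 0.722% of tested genes were above and 64.5% below. Apoe was at 69.5 to 76.9 in KPC-OG and 58.8 to 83.1 in KPC, and Trem2 at 0.302 to 0.529 in KPC-OG and 0.170 to 0.431 in KPC, both overlapping. The TPM ratio of Arg1 to Mrc1 was 0.753 to 0.847 in KPC-OG and 0.151 to 0.227 in KPC, a narrow range within each group. The ratio of Trem2 to Mrc1 was 0.217 to 0.324 in KPC-OG and 0.0630 to 0.138 in KPC, and that of Apoe to Mrc1 was 42.2 to 55.3 in KPC-OG and 21.8 to 26.6 in KPC. A ratio to Mrc1 higher in every KPC-OG library than in every KPC library was found for 2.37% of tested genes, and one lower in every KPC-OG library for 30.4%. The ratio of Cd163 to Mrc1 overlapped, at 0.127 to 0.269 in KPC-OG and 0.162 to 0.536 in KPC.

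The order of mean levels per length was also described in each group. In KPC-OG, mean TPM was highest for Apoe (1345 ± 368), followed by Mrc1 (28.9 ± 8.01), Cd14 (26.0 ± 11.6) and Arg1 (22.8 ± 5.29), and these last 3 did not differ beyond their SD (n = 4). Below them came Trem2 (8.27 ± 3.48), Mertk (5.67 ± 0.941), Cd163 (4.79 ± 1.22) and Chil3 (3.79 ± 2.15), neighbours within their SD, and then Gpnmb (1.91 ± 0.744) and Nos2 (0.220 ± 0.101). In KPC, Apoe (141 ± 38.6) and Mrc1 (5.76 ± 1.57) led, and Cd14 (1.66 ± 0.315), Cd163 (1.66 ± 1.03), Mertk (1.15 ± 0.228) and Arg1 (1.08 ± 0.192) followed without a clear order. Trem2 (0.538 ± 0.0847), Gpnmb (0.467 ± 0.165), Chil3 (0.287 ± 0.278) and Nos2 (0.0608 ± 0.0710) came last. By its mean Arg1 took rank 4 in KPC-OG and rank 6 in KPC, while Cd163 took rank 7 in KPC-OG and rank 4 in KPC. These ranks lie among neighbours within their SD, so a change of rank is not shown. Arg1 lay clear above Cd163 in KPC-OG, while in KPC the pair did not differ beyond their SD.

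The likeness of levels within the groups was described in the same way for the other genes, as Pearson r of log2 CPM after each group's mean was removed, over 8 libraries and 186 candidate genes, with the value without the 2 farthest libraries beside it. Mrc1 varied most like Stab1 (0.89, and 0.59), Mertk most like Clec10a, a macrophage lectin gene (0.85, and 0.73), and Arg1 most like F13a1, a gene of resident macrophages (0.91, and 0.39), a value that rests on those 2 libraries. The other nearest genes are not macrophage markers: Chil3 varied most like Asl, a urea cycle gene (0.96, and 0.98), Cd163 most like Zbtb46, a dendritic cell gene (0.92, and 0.91), Gpnmb most like Cyp2e1, a hepatocyte gene (0.90, and 0.79), and Trem2 most like Cxcr2, a neutrophil receptor gene (0.80, and 0.78). With the mean of the pan-macrophage genes, r was 0.82 for Apoe, 0.70 for Mrc1, 0.59 for Chil3, 0.29 for Arg1, 0.12 for Mertk, 0.08 for Gpnmb, 0.06 for Cd163, 0.0039 for Cd14 and -0.24 for Trem2. With so few libraries these are descriptions of the libraries, which share their cell content and depth.

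**Figure D5:**
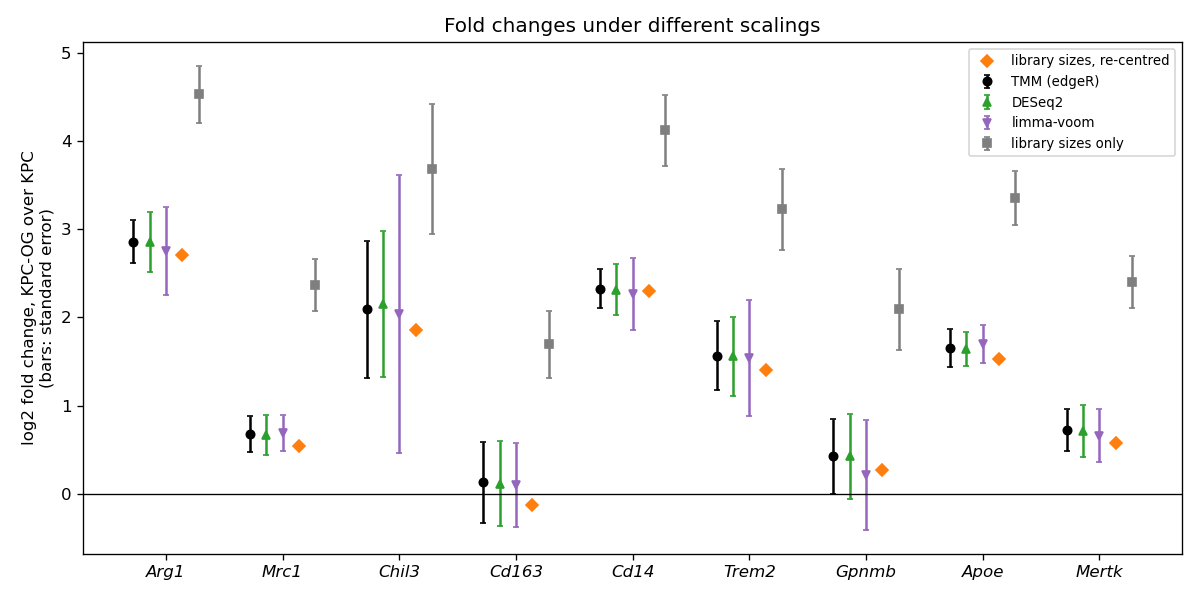
Log2 fold change of KPC-OG over KPC (y axis, bars give the standard error) of the 9 tested genes under TMM scaling with edgeR, DESeq2's size factors, limma-voom, library sizes alone, and library sizes re-centred on the median gene. The first 3 and the re-centred values lie close together, with Arg1 between 2.71 and 2.86, although Cd163 turns from 0.13 with TMM to -0.13 re-centred, whereas library sizes alone raise every gene, Cd163 to 1.69.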

How the data were processed

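Bulk RNA-seq of mouse pancreas was analysed in 2 groups of 4 libraries, grouped by the labels' genotypes. One allele that both groups share is not reported here. Transcript abundances were estimated by the authors in Sailfish 0.6.3, per the file headers (words of 20 bases, up to 1000 iterations, bias correction) against an Ensembl release 76 index. The authors deposited estimated counts, TPM and transcript lengths for 86127 transcripts in each library; the lengths are another deposited column. STAR 2.0.4b, bcl2fastq, limma and edgeR are listed too, per the submitters' processing notes, with no role given.

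From these files, the estimated counts of 83827 transcripts that matched GENCODE M21 were summed for 29621 genes and rounded to whole numbers; the 2300 unmatched transcripts held 1.45 to 3.04% of reads in KPC-OG and 3.93 to 4.23% in KPC. Genes passing edgeR's filterByExpr by group (minimum count 10) numbered 14267 and were fitted with edgeR 4.0.16 (R 4.3.3), TMM scaling, the robust quasi-likelihood test and Benjamini-Hochberg adjustment at 0.05. TMM factors were 1.14 to 2.28 in KPC-OG and 0.483 to 0.653 in KPC. On data simulated from the real libraries (13557 genes), 54 of 100 genes planted at 2-fold and 82 of 100 at 4-fold were recovered, with 12 false calls among 148. No pair of libraries of 1 group agreed within sampling noise. Intervals and limits from counts of 0 cover counting error only.

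The 10 genes, the lists and the rule for named genes were chosen with earlier results of these data known. From each list the up to 4 passing genes with the smallest adjusted p are named, and every passing gene of a list with 5 or fewer; Slc7a2, Amd1, Oat, Nos3, Ddah2, Gch1, Traf6, Dock1 and Chil4 were named after their values were seen. Alternatives were library sizes alone, DESeq2 1.42.0, limma-voom (limma 3.58.1), limma on log2(TPM + 1) and log2(TPM + 0.1), no filter, a replicate block, no Lars2, and leaving out libraries. Fold changes on the log2(TPM + pseudocount) scale understate low genes. Promoter windows come from RefSeq (GRCm38.p6), in which 6 of the 10 genes were searched.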

Additional observations from a re-analysis of the deposited data

Results flagged for a closer look

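In 178 groups of 4 libraries, 13 held a library whose gap to the others passed Dixon's 95% critical value, and chance flags about 1 in 20. Cd163 was 18.4 CPM in KPC-OG 3, against 6.21 to 7.35 CPM in the other KPC-OG libraries. On the scale relative to the pan-macrophage mean, Cd163 was -0.41 in KPC-OG 3 and -1.87 to -1.66 in the other KPC-OG libraries. Apoe on that scale was 4.68 in KPC-OG 3 and 4.38 to 4.43 in the others. Clec10a was 14.5 CPM in KPC-OG 3 and 6.55 to 7.24 CPM in the others. Cyp2e1, a hepatocyte gene, was 51.9 CPM in KPC-OG 3 and 0.457 to 9.23 CPM in the others. Ddah2 was 6.68 CPM in KPC-OG 3 and 11.998 to 12.7 CPM in the others. The adipocyte sum was 260.0 CPM in KPC-OG 3 and 4.90 to 38.4 CPM in the others. The summed level of the TREM2 signalling list was 165 CPM in KPC-OG 1 and 194 to 197 CPM in the others. Among KPC libraries, Chil4 was 9.02 CPM in KPC 3 and 0 to 0.955 CPM in the others. Klf4 was 11.7 CPM in KPC 3 and 7.77 to 8.21 CPM in the other KPC libraries. Socs3 was 8.49 CPM in KPC 3 and 17.7 to 18.9 CPM in the other KPC libraries. Pros1 was 16.3 CPM in KPC 2 and 13.3 to 13.6 CPM in the other KPC libraries. The LPS receptor list summed to 217 CPM in KPC 1 and 182 to 185 CPM in the other KPC libraries. Of the 13, 7 fell on KPC-OG 3.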

How the results depend on the processing

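Estimated reads, 7373286 to 18292115 per library, limit what Nos2, Chil3 and Trem2 can show. The scaling moved the results most: against 2486 genes higher and 2373 lower in KPC-OG, library sizes alone gave 13078 and 99, log2(TPM + 1) 12856 and 121, and log2(TPM + 0.1) 12817 and 120. Under these 3 scalings, in that order, the higher genes numbered 16, 16 and 16 for alternative activation, 14, 14 and 14 for classical activation, 21, 21 and 21 for the lipid-associated list, 10, 10 and 10 for TREM2 signalling, 13, 13 and 13 for efferocytosis, 14, 13 and 13 for the LPS receptor list, 10, 9 and 9 for arginine and nitric oxide and 11, 11 and 11 for haem handling, and the lower genes numbered 0 in each of the TREM2, efferocytosis, LPS and arginine lists. Values lower in KPC-OG turned positive under the 3: Adam10 to 1.17, 0.87 and 0.92, Tyro3 to 0.50, 0.50 and 0.60, Irak1 to 0.54, 0.38 and 0.39, Odc1 to 0.27, 0.14 and 0.14, Srm to 0.41, 0.28 and 0.30, Slc7a2 to 0.65, 0.49 and 0.57, Amd1 to 1.04, 0.86 and 0.90, Dock1 to 1.28, 1.01 and 1.11, Traf6 to 1.06, 0.82 and 1.02, Asl to 1.24, 1.38 and 1.49, and Zbtb46 to 1.32, 0.90 and 1.14; Slc7a1 turned to 0.049 and 0.053 under the TPM settings and was -0.02 with library sizes alone. The threshold was passed by Chil3, Cd163 and Gpnmb under these 3 and by Chil3 with DESeq2 and without KPC-OG 4.

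DESeq2 gave 2851 higher and 2700 lower among 17250 genes, and 1 haem gene lower; limma-voom gave 1752 higher and 2370 lower, with 1 TREM2 signalling gene and 3 arginine genes higher; with no filter 2506 were higher and 2022 lower among 21893, and 1 TREM2 signalling gene was higher. The calls of Il1b, Btk, Ddah1, Slc11a1 and Nos3 were lost with limma-voom. Without KPC-OG 2 and KPC-OG 3 together there were 2166 higher and 1813 lower, 1 lipid-associated gene lower, 1 TREM2 signalling gene higher and 0 lower, 1 efferocytosis gene lower, and Cd163 was -0.34, Gpnmb -0.27, Cyp2e1 -2.06 and Chil3 0.94; the calls of Mertk, Adam10, Btk, Slc11a1, Nos3, Amd1 and Dock1 were lost. The cause of these changes was not tested.

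The labels do not say whether same-numbered libraries of the groups are paired. The correlations of their deviations were 0.274, 0.275, 0.0385 and 0.0361 for numbers 1 to 4. For KPC-OG 1, 2 and 4 the same-numbered KPC library correlated best, and the next best values were 0.159, 0.197 and 0.00956. KPC-OG 3 correlated best with KPC 2 (0.0546). A pairing was thus neither shown nor excluded. With the replicate block 2477 genes were higher and 2418 lower, 5 classical genes were higher and 1 LPS gene was lower. The higher pan-macrophage genes numbered 16 in place of 13, and the higher alternative activation genes 11 in place of 9. The SE of Cd163 was 0.17 in place of 0.46. The calls of Btk and Traf6 were lost.

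Leaving out single libraries gave 1689 to 2880 genes higher and 1705 to 2548 lower, and 4 to 6 of the 10 genes higher. Higher genes ranged from 12 to 15 for pan-macrophage, 7 to 10 for alternative activation, 2 to 5 for classical activation, 9 to 11 for lipid-associated, 1 to 3 for TREM2 signalling, 6 to 7 for efferocytosis, 3 to 6 for LPS, 3 to 5 for arginine and 2 to 3 for haem; lower genes ranged from 0 to 1 for lipid-associated, TREM2 signalling and haem, 1 to 2 for LPS and 4 to 6 for arginine. Among the 10 genes, log2 fold changes ranged from 2.70 to 2.99 for Arg1, 2.22 to 2.49 for Cd14, 1.56 to 1.82 for Apoe, 1.28 to 1.78 for Trem2, 0.55 to 0.82 for Mrc1, 0.51 to 0.85 for Mertk, 1.72 to 2.58 for Chil3, 0.16 to 0.62 for Gpnmb and -0.36 to 0.56 for Cd163, which was -0.36 without KPC-OG 3 and -0.09 without KPC 1. Chil4 was -0.07, -0.252 and -0.27 without KPC 1, KPC 2 and KPC 4 and -0.32 without KPC-OG 4, and 3.04 without KPC 3. Of 58 named genes, 42 reversed under none of the alternatives run.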
